A study of Homo sapiens with 20 samples.

Results

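DIGIT is a long noncoding RNA gene that lies next to GSC, a homeobox transcription factor gene of the primitive streak and early endoderm. The edited clones KO1 and KO2, labelled as DIGIT knockouts, were compared with their parent before differentiation. The parent, here WT, is H1 (WA01), an established human embryonic stem cell line. At day 0 the cells were undifferentiated and grown in mTeSR1, a defined feeder-free medium. The members were the 6 RNA-seq libraries of day 0, taken by their labels: 2 of WT, 2 of KO1 and 2 of KO2, of 12 RNA-seq libraries and 20 samples in the series. The other 6 RNA-seq libraries were of the same 3 lines at day 4 of endoderm differentiation, induced with Activin A (a TGF-beta family ligand, 50 ng/ml) in B27-supplemented RPMI, and served to ask which day 0 differences were found again. They also entered the filter and the estimate of the spread between libraries behind the day 0 calls; with only the day 0 libraries 21 of the 47 features called below were called. No agent other than the growth medium was applied at day 0. Each edited line is 1 clone, so a difference of a clone from WT can belong to the edit or to the clone, and the day 0 libraries cannot tell these apart. The labels do not say whether the 2 libraries of a line came from separate cultures, so p-values measure only the spread between libraries.

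Human embryonic stem cells are held in the pluripotent state by a network around POU5F1, SOX2 and NANOG. When single cells of such a line are expanded into clones, some loci are known to be switched off in only some of the clones. Imprinted genes, clustered protocadherins and zinc finger genes are among them. The transcription factor p53, which responds to DNA damage and to cutting by nucleases, is known to restrain the survival of such cells. Those gene groups were read out beside the markers of pluripotency and of the early lineages. The lists were chosen with earlier results of these data known. PKIB, MEG3, PCDHB5, LRRC61 and CDKN1A were marker genes given beforehand. Counts of calls in the lists are therefore descriptions and not support.

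The counted libraries held 9942016 to 21394547 reads assigned to features at day 0, and levels are given as CPM, counts scaled to library size by the TMM method, on which 3 counts came to 0.133 to 0.294 CPM. CPM are not per length, so they are compared between libraries and not between genes. A feature was called where edgeR's quasi-likelihood test gave a Benjamini-Hochberg adjusted p below 0.05 over the 16792 features tested. DIGIT could not be looked up, because LOC108868751, NR_144432, GSC-DT and DIGIT each matched 0 feature names. The knockout is therefore taken from the labels. The libraries had the profile of undifferentiated cells. The summed level of 8 defining markers was 7090 to 7410 CPM in WT, 6700 to 7050 CPM in KO1 and 7040 to 7080 CPM in KO2. This sum was a little lower in every clone library than in both WT libraries, as were 7.53% of all tested features. Single markers differed: DNMT3B was lower in every clone library (2210 and 2260 CPM in WT, 1570 to 2080 CPM in the clones). LIN28A was higher in each (2030 and 2010 CPM in WT, 2120 to 2170 CPM in the clones). Markers of other cells were low, and none was at 0 in all 6 libraries: 3 blood markers summed to 0.375 to 0.872 CPM and 4 of trophoblast and amnion to 0.562 to 1.26 CPM. The sum of 6 endoderm markers was 4.84 to 4.87 CPM in WT and 5.27 to 7.7 CPM in the clones, that of 3 mesendoderm markers 0.706 to 1.07 and 1.47 to 2.06 CPM, and that of 3 neuroectoderm markers 14.7 to 15.5 and 16 to 17.9 CPM. Thus these 3 sums were higher in every clone library than in both WT libraries, though single markers differed. On the higher side 8.46% of all tested features showed the same separation. SOX1 made up most of the neuroectoderm sum (13.8 and 14.6 CPM in WT, 15.4 to 16.9 CPM in the clones), while LHX2 was lower in every clone library. HHEX reached 3.03 CPM only in KO1 replicate 2 and CXCR4 3.18 CPM only in KO2 replicate 1. GATA4, EOMES and MIXL1 overlapped between clones and WT. The part of these shifts in the results below was not tested. The 5 markers of fibroblasts or feeders, several of them also made by stem cells, summed to 333 to 379 CPM with overlap of the lines.

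KO1 replicate 2 stood apart from the other 5 day 0 libraries. In the KO1 pair 49 features differed more than 2-fold, against 0 in the WT pair and 1 in the KO2 pair. The genes furthest above replicate 1 included stress-responsive ones. TXNIP, an inhibitor of thioredoxin and glucose uptake, was at 50.3 CPM in it and 8.14 to 12.5 CPM in the other 5. DDIT4, an inhibitor of mTORC1, was at 246 CPM against 52.3 to 86.9 CPM, and DDIT3, a transcription factor of the unfolded protein response, at 14 CPM against 3.24 to 3.78 CPM. Among those furthest below were ARC, an immediate early gene, at 8.72 against 20.3 to 26.1 CPM, and TAGLN, an actin-binding protein gene, at 71.8 against 152 to 212 CPM. These 5 genes were not called in the mean of the clones. Counts of calls over all features are therefore given with and without it, and a change in the count of a described list is stated.

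In the mean of the 2 clones 47 features were called, 0.280% of those tested, of which 15 were higher than in WT (0.0893%) and 32 lower (0.191%). The lower ones reached further: 19 were lower and 5 higher by at least 1 on the log2 scale. The 47 all had 4 clone libraries on one side of both WT libraries, a pattern that 16.0% of all tested features shared. Set against WT alone, KO1 had 10 features higher (0.0596%) and 30 lower (0.179%), 0.238% in all. KO2 had 9 higher (0.0536%) and 15 lower (0.0893%), 0.143% in all. These 2 comparisons share the WT libraries, so the clones' values are given side by side and no overlap is read from them. Without KO1 replicate 2 the count in the mean rose to 66 higher and 89 lower, and without KO1 replicate 1 to 787 and 870, with all 47 called in both. Without WT replicate 1 it was 2 and 10, without WT replicate 2 it was 1 and 11, without KO2 replicate 1 it was 5 and 16 and without KO2 replicate 2 it was 6 and 19. When either WT library was left out, 12 of the 47 were called. In the 14 alternative analyses no called feature changed direction, and 9 were called in every one: PKIB, MEG3, PCDHB5, C7orf29, PIWIL2, PEG3, ZNF558, ZNF585A and ZNF585B.

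**Figure D1:**
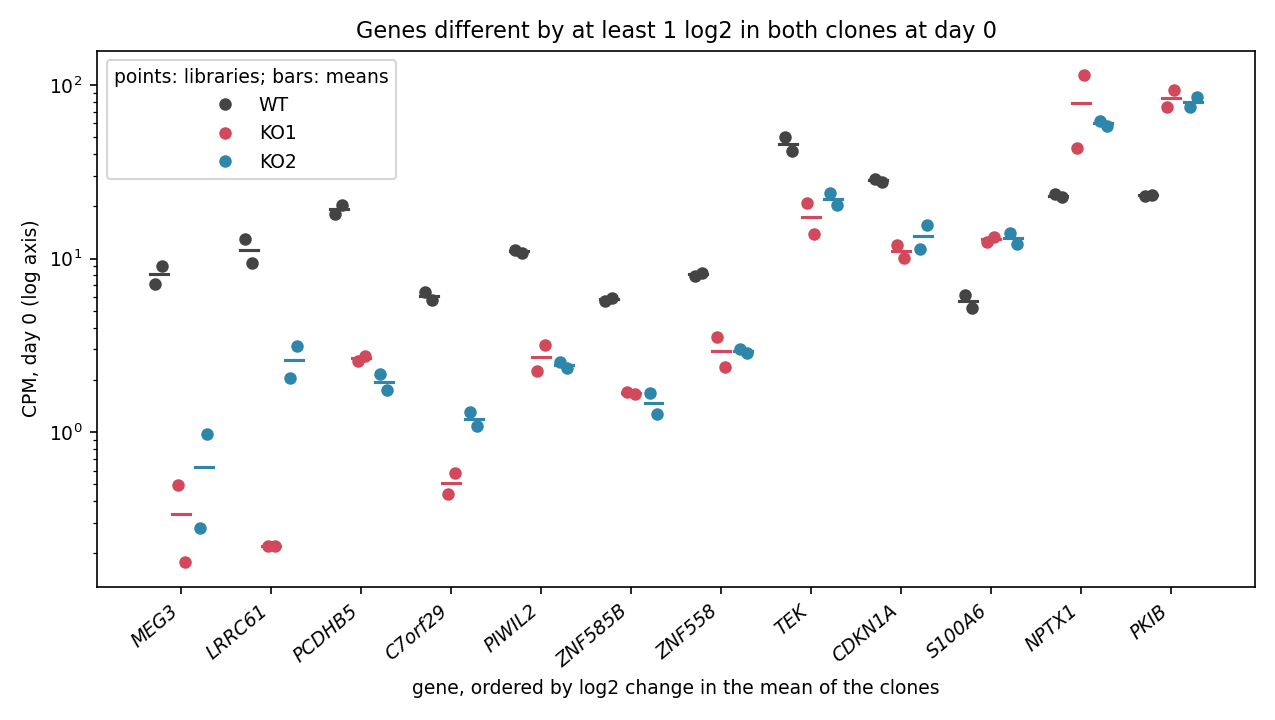
Scaled CPM on a log axis in each day 0 library (points) with the mean of each line (bars) for the 12 genes chosen as called in the mean of the clones, at least 1 log2 from WT in each clone in the same direction, with at least 5 CPM on the higher side and no overlap of clone and WT libraries. Of the 12, 9 are lower and 3 higher in the clones; LRRC61 also separates the clones, at about 0.22 CPM in KO1 and 2.06 to 3.13 CPM in KO2.

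Several genes that WT expressed at a modest level were much lower in both clones. They included the imprinted genes MEG3 and PEG3, the protocadherin PCDHB5, and the overlapping pair LRRC61 and C7orf29. To show how starts of such genes differ, the RefSeq promoter windows of MEG3, LRRC61, PCDHB5 and CBR1, a further such gene given below, are printed here. No window was found for PEG3 or C7orf29. The windows (GRCh38.p14) run from 250 bases before to 50 after the start, 5′ to 3′ on the gene's strand. Each CG, the dinucleotide that DNA methylation acts on, is in capitals.
MEG3 chr14:100825858-100826157, plus strand: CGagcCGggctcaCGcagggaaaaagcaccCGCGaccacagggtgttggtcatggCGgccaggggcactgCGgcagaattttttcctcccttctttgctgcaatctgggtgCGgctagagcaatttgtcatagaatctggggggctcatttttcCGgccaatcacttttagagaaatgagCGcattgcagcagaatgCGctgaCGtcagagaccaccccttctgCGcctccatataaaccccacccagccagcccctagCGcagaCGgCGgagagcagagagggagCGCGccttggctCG
LRRC61 chr7:150323105-150323404, plus strand: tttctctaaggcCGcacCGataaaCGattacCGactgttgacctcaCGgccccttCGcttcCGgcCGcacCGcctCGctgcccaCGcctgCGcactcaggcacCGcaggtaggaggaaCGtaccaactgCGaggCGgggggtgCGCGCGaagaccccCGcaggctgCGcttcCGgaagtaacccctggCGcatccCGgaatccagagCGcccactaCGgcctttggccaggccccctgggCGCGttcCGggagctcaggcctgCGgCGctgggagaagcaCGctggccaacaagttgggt
PCDHB5 chr5:141134956-141135255, plus strand: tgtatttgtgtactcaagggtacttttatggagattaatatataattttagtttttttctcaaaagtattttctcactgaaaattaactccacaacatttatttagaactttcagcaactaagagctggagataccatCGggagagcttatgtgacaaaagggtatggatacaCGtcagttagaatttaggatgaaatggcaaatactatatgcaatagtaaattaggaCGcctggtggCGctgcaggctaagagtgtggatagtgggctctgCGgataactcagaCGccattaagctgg
CBR1 chr21:36069774-36070073, plus strand: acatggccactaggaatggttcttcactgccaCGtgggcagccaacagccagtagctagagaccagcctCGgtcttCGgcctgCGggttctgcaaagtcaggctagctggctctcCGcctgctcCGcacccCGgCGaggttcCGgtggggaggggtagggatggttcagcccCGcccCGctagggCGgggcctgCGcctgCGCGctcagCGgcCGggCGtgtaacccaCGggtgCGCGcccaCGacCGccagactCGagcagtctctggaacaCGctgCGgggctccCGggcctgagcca
The windows hold 19, 32, 6 and 27 CG, where the median over the 17624 windows of tested features was 24 and the quartiles 13 and 33. Of the 11 features lower by at least 2 log2 in the mean, 7 had a window, with 6 to 32 CG and a median of 22, so as a set they were not far from the median of all. DNA methylation was not analysed here.

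MEG3, the maternally expressed noncoding RNA of an imprinted cluster, was at 7.17 and 9.04 CPM in WT, 0.494 and 0.178 CPM in KO1, and 0.281 and 0.979 CPM in KO2. Both WT libraries were above all 4 clone libraries. The log2 change of MEG3 was -4.16 in the mean (SE 0.33, adjusted p = 6.26e-06), -4.63 in KO1 (adjusted p = 2.79e-05) and -3.69 in KO2 (adjusted p = 0.00108). DLK1, the paternally expressed gene of the same cluster, was low throughout, at 0.872 and 1.34 CPM in WT, 1.26 and 0.801 CPM in KO1 and 2.15 and 1.76 CPM in KO2, and did not pass the test (log2 0.31, adjusted p = 0.887). PEG3, a paternally expressed zinc finger gene, was at 4.16 and 3.04 CPM in WT, 0.22 and 0.356 CPM in KO1, and 0.375 and 0.49 CPM in KO2. Its log2 change was -3.29 in the mean (SE 0.38, adjusted p = 5.06e-04), with -3.55 in KO1 and -3.02 in KO2, and no clone library reached a WT one. Among 38 tested genes of an imprinted gene list these 2 were lower and 0 higher, against 0.191% of all features called lower, and the list's median was 0.01, beside -0.00 over all features. MEST and PEG10, 2 strongly expressed imprinted genes, had log2 changes of -0.13 and 0.13 and did not pass. MEG3 overlaps MIR770, and PEG3 overlaps ZIM2 and PEG3-AS1, in the RefSeq table. The strand setting of the counting is not given in the sources used here, so reads of overlapping genes cannot be told apart.

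LRRC61, a leucine-rich repeat gene, was at 13 and 9.47 CPM in WT, 0.22 and 0.222 CPM in KO1, and 2.06 and 3.13 CPM in KO2. The log2 change was -5.60 in KO1 (adjusted p = 7.14e-07) and -2.1 in KO2 (adjusted p = 0.00345), and the KO2 libraries lay between KO1 and WT. In the mean its log2 change was -3.85 (SE 0.26, adjusted p = 1.14e-06). C7orf29, which overlaps LRRC61 in the RefSeq table, followed the same order: 6.39 and 5.79 CPM in WT, 0.439 and 0.578 in KO1, 1.31 and 1.08 in KO2, and log2 changes of -3.54 and -2.33 in KO1 and KO2. Their counts may not be independent, since the genes overlap. The difference between the clones was called for LRRC61 (log2 3.50 higher in KO2, adjusted p = 0.0309). That call was lost without KO1 replicate 2 and without either KO2 library, and the fall in KO2 was not called without WT replicate 1 or without KO2 replicate 1, with an adjusted p of up to 0.144. With the 4 clone libraries of each day taken as 1 group, the adjusted p of the mean was 0.159. That grouping adds the distance between the clones on both days, day 4 included, to the error.

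PCDHB5, one of a cluster of cell-surface cadherins that are switched on or off gene by gene, was at 18 and 20.4 CPM in WT, 2.58 and 2.76 CPM in KO1 and 2.15 and 1.76 CPM in KO2. The lines did not overlap, and its log2 change was -3.07 in the mean (SE 0.14, adjusted p = 1.19e-08), -2.84 in KO1 and -3.29 in KO2. Its neighbours changed less. PCDHB4, next to it on one side, was at 2.03 and 1.2 CPM in WT and 0.769 to 1.59 CPM in the clones (log2 -0.21, adjusted p = 0.922), and PCDHB6, on the other side, at 3.78 and 2.83 CPM in WT and 1.92 to 2.44 CPM in the clones (log2 -0.60, adjusted p = 0.593). PCDHB5 was the one gene called of 18 tested in the cluster (0.191% of all features were called lower). Of the 18, 15 had a negative log2 change, 8 had all clone libraries below WT, as did 7.53% of all features, and the median was -0.26. PCDHB3 was the nearest to a call, at 5.04 and 6 CPM in WT and 3.11 to 4.02 CPM in the clones (log2 -0.68, adjusted p = 0.179). In the adjoining alpha and gamma clusters 0 of 15 and 0 of 22 genes were called in the mean, with medians of -0.08 and -0.16; 5 and 3 genes had an unadjusted p below 0.05, and DESeq2 called 0 in both. The beta genes resemble each other closely, so reads that fit several may have been lost or split.

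CBR1, a carbonyl reductase, was at 3 and 2.47 CPM in WT, 0.769 and 0.133 CPM in KO1 and 0.0937 and 0.196 CPM in KO2. These were 66 counts in WT and 3 in KO2, a ratio of 18.8 after scaling (exact 95% interval for counting error alone 6.15 to 93.3). In the mean CBR1 was called (adjusted p = 0.00308), but not without WT replicate 1 (0.0828) or WT replicate 2 (0.0744). CBR3, its neighbour, was at 2.71 and 4.03 CPM in WT and 2.72 to 3.68 CPM in the clones. LOC100506314, an uncharacterised gene, had 42 counts over both WT libraries, 1 over KO1 and 0 over KO2. The ratio of WT to the clones was 106 (exact 95% interval 18 to 4270), and WT was at least 11.9-fold higher than KO2, taking a floor of 3 counts over the group. It was called in the mean (adjusted p = 0.00137), though not without WT replicate 1 (0.0528).

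PIWIL2, a PIWI protein gene of the germline that binds small RNAs, was at 11.2 and 10.8 CPM in WT, 2.25 and 3.16 CPM in KO1 and 2.53 and 2.35 CPM in KO2. Its log2 change of -2.09 (SE 0.19, adjusted p = 3.21e-05) was nearly the same in KO1 (-2.01) and KO2 (-2.17). The list of naive and germline factors, which does not hold PIWIL2, had 0 of 16 called and a median of -0.13 (3 below 0.05 unadjusted, 1 called lower by DESeq2). Near the lower limit of detection were MLKL, the effector of necroptosis, at 1.36 and 1.62 CPM in WT and 0.165 to 0.281 CPM in the clones, and CTSF, a lysosomal protease, at 1.36 and 1.91 CPM in WT and 0.165 to 0.656 CPM. CHP2, a calcineurin-like calcium-binding protein, was at 1.55 in both WT libraries and 0.0937 to 0.49 CPM in the clones. All 3 were called in the mean, and none of the 3 was called when either WT library was left out. LOC100506314, CBR1, MLKL, CTSF and CHP2 fall outside the naming rule, as do CHGA, CDH9, PHLDA3, MDM2, EDA2R, BTG2, RPS27L, ZNF175 and the other called genes with smaller changes given below. These, and genes given only as neighbours or for contrast, were named after their values were seen.

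Genes with a ZNF symbol, most of them zinc finger proteins thought to repress transcription or mobile elements, gave 4 lower and 0 higher of 511 tested, against 0.191% of all features called lower, with a list median of -0.03. Without KO1 replicate 2 more of them were called lower, as were more of all features. The ZNF585 pair adjoin each other on chromosome 19. ZNF585B was at 5.71 and 5.93 CPM in WT, 1.7 and 1.65 CPM in KO1 and 1.69 and 1.27 CPM in KO2 (log2 -1.88, SE 0.20, adjusted p = 3.14e-04). ZNF585A was at 4.65 and 4.17 CPM in WT, 1.21 and 1.25 CPM in KO1 and 1.03 and 1.57 CPM in KO2 (log2 -1.79, SE 0.21, adjusted p = 7.02e-04). No clone library was above 1.7 CPM for either gene. The 2 are near copies, so their separate values are uncertain. ZNF558 was at 7.94 and 8.26 CPM in WT, 3.52 and 2.36 CPM in KO1 and 3 and 2.84 CPM in KO2 (log2 -1.48, adjusted p = 5.06e-04), with -1.48 in KO1 and -1.47 in KO2. ZNF175 fell less, by 0.63 on the log2 scale (adjusted p = 0.0391), and neither clone passed alone.

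TEK, the angiopoietin receptor of endothelial cells, was at 50 and 41.8 CPM in WT, 21 and 13.9 CPM in KO1 and 23.8 and 20.3 CPM in KO2. All clone libraries were below WT, with a log2 change of -1.23 (SE 0.14, adjusted p = 5.06e-04), -1.40 in KO1 and -1.05 in KO2. It was the 1 gene called among 13 tested of a mesoderm and endothelium list, against 0.191% of all features called lower. The median of that list was -0.22 in the mean, 0.18 in KO1 and -0.34 in KO2, so the clones did not share a direction. With the clone libraries of each day as 1 group the adjusted p of TEK was 0.153. That error includes the distance between the clones at day 4, where TEK was at 23.6 and 25.3 CPM in KO1 and 16.5 and 13 CPM in KO2.

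The genes that rose were fewer and changed less. PKIB, an inhibitor peptide of the catalytic subunit of protein kinase A, rose most among those with at least 5 CPM on the higher side. It was at 23 and 23.2 CPM in WT, 75.1 and 93.8 CPM in KO1 and 74.8 and 84.8 CPM in KO2. Every clone library was more than 3 times either WT library. Its log2 change was 1.83 in the mean (SE 0.11, adjusted p = 4.8e-07), 1.87 in KO1 and 1.79 in KO2. It was the 1 gene called of 23 tested in a list of protein kinase A subunits, inhibitors, anchors and target genes. Of all features 0.0893% were called higher, and the list's median was 0.02. NPTX1, a neuronal pentraxin, was at 23.4 and 22.7 CPM in WT, 43.6 and 114 CPM in KO1 and 62.3 and 58 CPM in KO2. The KO1 libraries were more than 2-fold apart, though all clone libraries were above WT. The log2 change fell from 1.58 in the mean (SE 0.27, adjusted p = 0.0162) to 1.15 without KO1 replicate 2. NPTX1 was not called without WT replicate 1 (0.345), WT replicate 2 (0.464), KO2 replicate 1 (0.071) or KO2 replicate 2 (0.0514).

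S100A6, a calcium-binding protein gene that fibroblasts also express, was at 6.2 and 5.16 CPM in WT and 12.2 to 14 CPM in the 4 clone libraries (log2 1.20, SE 0.18, adjusted p = 0.00509). It was the 1 gene called of 16 tested in the fibroblast and feeder list (median 0.06), against 0.0893% of all features called higher. S100A6 was not called when either WT library was left out. CHGA, a granin of neuroendocrine secretory granules, was at 50 and 49.6 CPM in WT, 119 and 80.4 CPM in KO1 and 105 and 106 CPM in KO2 (log2 1.04, adjusted p = 0.00137). CHCHD2, a mitochondrial protein that also acts on transcription of respiratory genes, was at 12.5 and 11.2 CPM in WT and 22.1 to 24.7 CPM in the clones (log2 0.97, adjusted p = 0.00128). It has near-identical pseudogene copies, so its level rests on how reads that fit several places were treated. CHGA was not called without WT replicate 1 (0.0724) or WT replicate 2 (0.125), nor CHCHD2 without WT replicate 2 (0.132). The other genes called higher had log2 changes of 0.37 to 0.79, except CDH9, a cadherin near the detection limit (0.387 and 0.565 CPM in WT, 1.6 to 2.15 CPM in the clones). Among them were SFRP1, a secreted WNT antagonist (1050 and 1120 CPM in WT, 1390 to 1470 CPM in the clones), and BST2, an antiviral tether (17.3 and 15.1 CPM in WT, 21.5 to 30 CPM in the clones). SFRP1 was the 1 gene called of 28 tested in a WNT list, against 0.0893% of all features called higher. Neither clone passed alone for SFRP1 (adjusted p = 0.137 in KO1, 0.108 in KO2), BST2 (0.0943, 0.109) or CDH9 (0.113, 0.109). SFRP1, BST2 and CDH9 were not called with only the day 0 libraries.

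Genes of the p53 target list were mostly lower in the clones. Of 35 tested genes 6 were called lower and 0 higher in the mean of the clones, against 0.191% of all features called lower. In all 31 of the 35 had a negative log2 change, 24 had every clone library below both WT libraries (7.53% of all features did), and the median was -0.37 in the mean, -0.39 in KO1 and -0.31 in KO2, beside -0.00 over all features. The count of 6 moved when any 1 of the 6 day 0 libraries was left out. It rose without either KO1 library and fell without either WT or either KO2 library, and no member was called without a WT library. The count of all features called lower moved the same way each time. Those fits leave 1 library in a group, so their counts are not set against 0.191%. The median stayed between -0.33 and -0.38 in those 6 analyses. With all libraries, KO1 set against WT alone had 6 list members called lower, where 0.179% of all features were. KO2 had 2, where 0.0893% of all features were.

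CDKN1A, the p21 inhibitor of cyclin-dependent kinases, was at 28.9 and 27.5 CPM in WT, 12 and 10.1 CPM in KO1 and 11.4 and 15.7 CPM in KO2. No clone library reached WT, with a log2 change of -1.21 (SE 0.15, adjusted p = 0.00137), -1.35 in KO1 and -1.06 in KO2. It was not called without WT replicate 1 (0.062) or WT replicate 2 (0.0591), nor with the clone libraries as 1 group (0.648). The 1-group error includes the distance between the clones at day 4, where CDKN1A was at 27.6 and 29.2 CPM in KO1 and 13.9 and 11.7 CPM in KO2. PHLDA3, a repressor of AKT signalling, was at 30.1 and 29.2 CPM in WT and 12.4 to 17.9 CPM in the clones (log2 -0.90, adjusted p = 0.00137). MDM2, the ubiquitin ligase that degrades p53, was at 102 and 103 CPM in WT and 71.7 to 79 CPM in the clones, a small but even fall of 0.45 on the log2 scale (SE 0.07, adjusted p = 0.00771). EDA2R, a death receptor of the TNF family, was at 12.9 and 13.6 CPM in WT and 7.56 to 8.46 CPM in the clones (log2 -0.75). BTG2, an antiproliferative gene, was at 10.3 and 9.68 CPM in WT and 5.71 to 6.46 CPM in the clones (log2 -0.71). GDF15, a stress cytokine, was at 3 and 3.53 CPM in WT and 1.25 to 1.57 CPM in the clones (log2 -1.27). For none of the 6 genes did a clone library reach WT. In KO2 alone CDKN1A and PHLDA3 were called. MDM2 (adjusted p = 0.103), EDA2R (0.112), BTG2 (0.219) and GDF15 (0.286) were not called in KO2. EDA2R was not called in KO1 alone either (adjusted p = 0.0643).

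Further list members lay below WT in each clone library without passing the test. BAX, a pore-forming apoptosis effector, was at 150 and 144 CPM in WT and 92.4 to 122 CPM in the clones (adjusted p = 0.121), and SESN1, a sestrin that restrains mTORC1, at 35.7 and 38.9 CPM in WT and 26.5 to 28 CPM in the clones (adjusted p = 0.0721). PLK2, a polo-like kinase, was at 20.4 and 22.7 CPM in WT, 12.2 and 7.34 CPM in KO1 and 14 and 16 CPM in KO2, and was called in KO1 (log2 -1.16, adjusted p = 0.0257) but not in the mean (adjusted p = 0.0625). The 2 members furthest above WT, PMAIP1 and SESN2, were high in 1 library: PMAIP1, a BH3-only apoptosis gene, was at 172 CPM in KO1 replicate 2 and 68.5 to 82.5 CPM in the other 5, and SESN2 at 98.2 against 54.3 to 57.1 CPM. Outside the list, RPS27L, a ribosomal protein paralog that p53 is known to induce, was also called: 52.4 and 63.2 CPM in WT and 34.8 to 43.3 CPM in the clones (log2 -0.58, adjusted p = 0.0281).

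The promoter windows of this group were searched on both strands for the p53 half-site, a short degenerate motif. It stood in 3 of the 27 list windows found, those of FDXR, AEN and PLK2, and in 5.79% of the windows of all tested features. Of the called features, HSPA2 and RPS27L held one. The window of RPS27L is printed with the match in capitals, since it was both lower in the clones and a gene that p53 is known to induce (GRCh38.p14, 5′ to 3′ along the gene).
RPS27L chr15:63157428-63157727, minus strand: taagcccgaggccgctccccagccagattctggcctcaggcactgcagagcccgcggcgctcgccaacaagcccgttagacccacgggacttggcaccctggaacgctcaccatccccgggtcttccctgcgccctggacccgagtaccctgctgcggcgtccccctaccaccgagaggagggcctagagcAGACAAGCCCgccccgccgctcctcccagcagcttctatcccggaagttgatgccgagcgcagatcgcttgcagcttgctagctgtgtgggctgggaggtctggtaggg
A match is a description of the letters in this window only, and p53 binding was not analysed here.

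**Figure D2:**
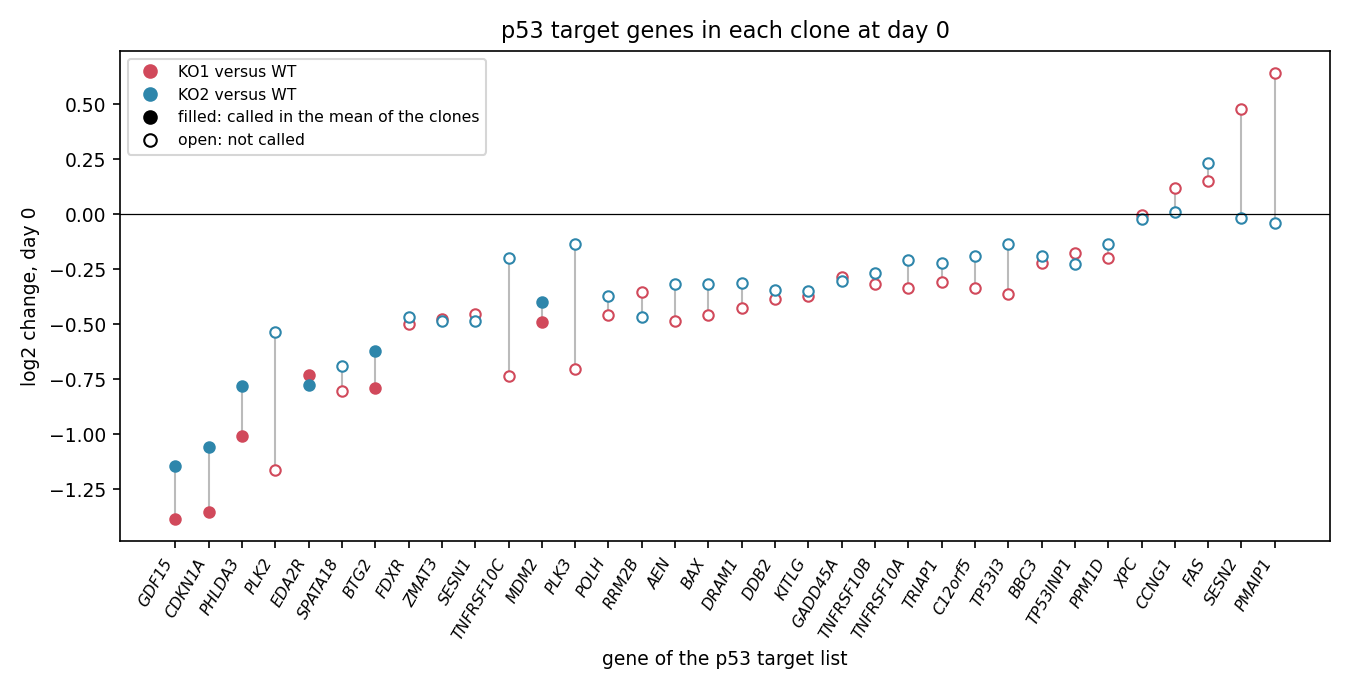
The log2 change from WT at day 0 of 34 genes of the p53 target list in KO1 (red) and KO2 (blue), ordered by the mean of the clones; filled points mark the 6 genes called in the mean. In the mean 30 of the 34 lie below 0, and SESN2 and PMAIP1, at the right, lie above 0 in KO1, where replicate 2 alone was high.

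The pluripotency and lineage genes did not pass the test. POU5F1 was at 460 and 437 CPM in WT, 449 and 482 CPM in KO1 and 430 and 462 CPM in KO2 (log2 0.02, SE 0.06, adjusted p = 0.96). NANOG was at 26.7 and 24.8 CPM in WT and 21.2 to 26.9 CPM in the clones (log2 -0.11, SE 0.09), and SOX2 at 200 and 232 CPM in WT and 213 to 324 CPM in the clones, with the highest value in KO1 replicate 2 (log2 0.20, SE 0.12). For these 3 genes the lines overlapped. Of 30 tested pluripotency genes edgeR called 0, with a median of 0.00. Of these 6 had an unadjusted p below 0.05, and DESeq2 called 1 higher and 1 lower. Every clone library was below both WT libraries for 7 of the 30 (7.53% of all features) and above both for 4 (8.46%). Without either KO1 library edgeR called genes of this list both ways, and it also called more of all features both ways. SOX2 was among those called higher without KO1 replicate 1. With all libraries edgeR called 0 of 18 genes of the primitive streak and mesendoderm (9 positive and 9 negative, 3 below 0.05 unadjusted), 0 of 22 of definitive endoderm (0.10, 1 unadjusted) and 0 of 22 of neuroectoderm (0.03, 2 unadjusted), and DESeq2 called 0 in these 3 lists. The mesendoderm median was 0.23, but -0.04 with genes at 0 counts in 1 group put at their bound and those with at most 3 counts in both groups left out, -0.09 with only the day 0 libraries and -0.11 without KO2 replicate 1, so it gives no direction. GSC, the neighbour of DIGIT, was near the floor: 0.0968 and 0.283 CPM in WT, 0.33 and 1.56 CPM in KO1 and 0.749 and 0.588 CPM in KO2. All 4 clone libraries were above WT, but the counts are few and the adjusted p was 0.544 (log2 1.96, SE 0.76). GSC was called when KO1 replicate 1 was left out (adjusted p = 0.0111), and not when any other of the 6 libraries was. At this depth EOMES, T, SOX17, GATA4 and GATA6, at 0 to 1.22 CPM in all 6 libraries, allow no statement on modest differences, and PAX6 did not pass the filter on low counts.

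Of the 32 lists read out, 10 held a called gene and 22 held none, and the medians of those 22 lay between -0.25 and 0.23. The sterol synthesis list had 0 of 27 called at day 0, with 24 positive log2 changes and a median of 0.12. DESeq2 called 0 of these as well, and 2 had an unadjusted p below 0.05. In the hypoxia and glycolysis list 0 of 26 were called (median 0.14, 8 below 0.05 unadjusted), in the DNA methylation enzymes 0 of 13 (median -0.01, 1 unadjusted) and in the cell cycle list 0 of 36 (median -0.03, 3 unadjusted), with 0 calls by DESeq2 in each. The Nodal and Activin list had 0 of 27 called by edgeR, 6 below 0.05 unadjusted and 1 called higher by DESeq2. Without KO1 replicate 2 edgeR called genes both ways in the Nodal and Activin list and higher in the hypoxia list, while it also called more of all features. Without KO1 replicate 1, 7 sterol and 7 hypoxia genes were higher, 4 DNA methylation enzymes lower, and 2 cell cycle genes higher and 7 lower, where 4.55% of all features were called higher and 5.03% lower. Over all features 1251 had an unadjusted p below 0.05.

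KO2 differed from KO1 by 2 called features, 0.0119% of those tested, both higher in KO2. They were LRRC61, given above, and PCDHGA10, a protocadherin of the gamma cluster. PCDHGA10 was at 5.13 and 4.45 CPM in WT, 3.63 and 2.58 CPM in KO1 and 8.8 and 7.93 CPM in KO2. KO1 was below and KO2 above WT, neither of them called against it, and the difference between the clones was 1.44 on the log2 scale (adjusted p = 0.0421). Both calls were lost without KO1 replicate 2 and without either KO2 library. Without KO1 replicate 1, which leaves the library that stood apart as the whole of KO1, 1376 features were higher and 1370 lower in KO2. 

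**Figure D3:**
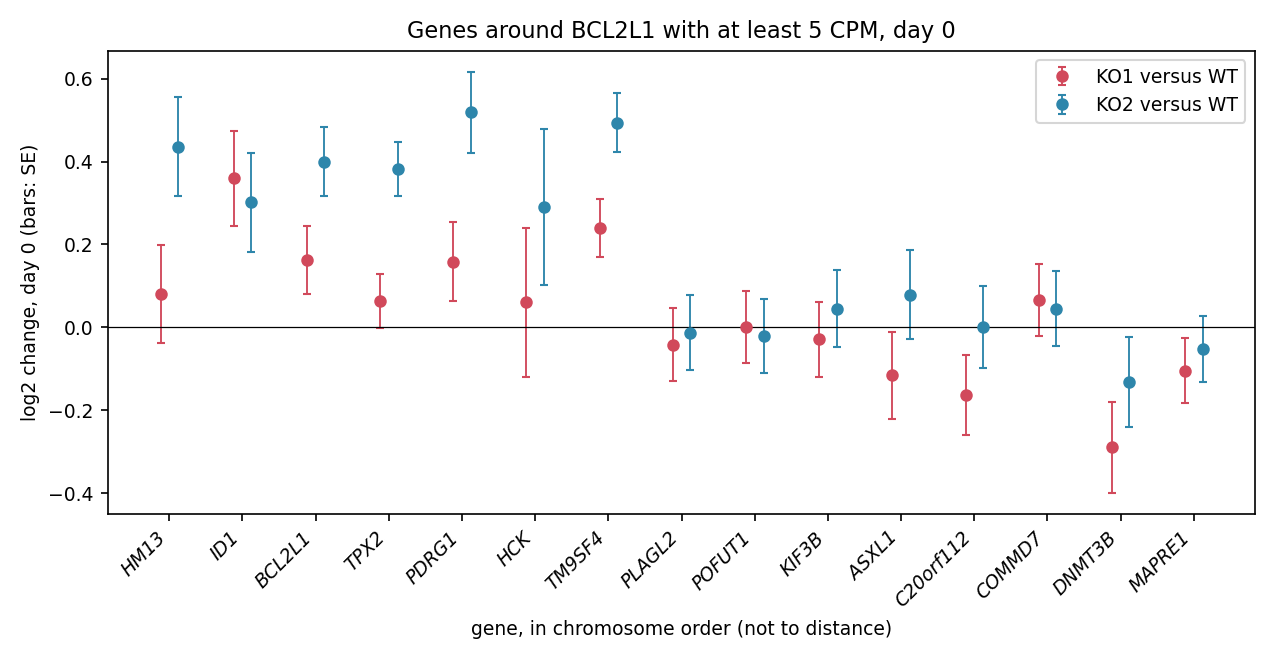
The log2 change from WT at day 0 with its SE for the 15 genes around BCL2L1 on chromosome 20 that had at least 5 CPM, in chromosome order, in KO1 (red) and KO2 (blue). In KO2 the genes plotted from HM13 to TM9SF4 lie between 0.29 and 0.52, and those from PLAGL2 on between -0.13 and 0.08.

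A stretch of chromosome 20 around BCL2L1, an inhibitor of apoptosis, was read because extra copies of it are known to arise in some human pluripotent lines in culture. DNA copy number was not analysed here. In KO2 the genes on one side of the stretch were higher than in WT and those on the other were not. TPX2, a spindle assembly factor, was at 300 and 312 CPM in WT, 320 and 320 CPM in KO1 and 394 and 405 CPM in KO2, where it was called (log2 0.38, adjusted p = 0.0258). TM9SF4, a transmembrane protein gene, was at a mean of 146 CPM in WT (SD 2.02, n = 2), 175 and 170 CPM in KO1 and 214 and 197 CPM in KO2, and was called in KO2 (log2 0.49, adjusted p = 0.00796) and in the mean (log2 0.37, adjusted p = 0.0166). BCL2L1 was at 127 and 113 CPM in WT, 140 and 129 CPM in KO1 and 156 and 160 CPM in KO2 (log2 0.40 in KO2, adjusted p = 0.109), and PDRG1 at 29.4 and 30.2, 34.4 and 32.2, and 43.2 and 42.3 CPM (log2 0.52 in KO2, adjusted p = 0.055). HM13, a signal peptide peptidase, had a log2 change of 0.44 in KO2 and 0.08 in KO1. For these 5 genes both KO2 libraries were above all WT and KO1 libraries. Low genes of the stretch were less regular: MYLK2 and COX4I2, under 5 CPM, had log2 changes of -0.69 and -0.07 in KO2.

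Next to TM9SF4 the pattern stopped. PLAGL2 was at 60.2 and 64.9 CPM in WT, 64.8 and 57.1 CPM in KO1 and 62.1 and 62.1 CPM in KO2, and POFUT1 at 54.9 and 57.3, 56.8 and 55.6, and 57.9 and 52.8 CPM. From PLAGL2 to MAPRE1 no log2 change in KO2 was above 0.08, and the lines overlapped for these 2 genes. The place of the step was seen in these values, so no test of it is given. In the list of 19 tested genes 1 was called in the mean and 2 in KO2 (0.0536% of all features were called higher in KO2); the calls in KO2 were lost without any one of the WT or KO2 libraries. Without KO1 replicate 2, 5 of the 19 were called higher in the mean, against 0.383% of all features. At day 4, in separate libraries, TPX2 was at 464 and 452 CPM in WT, 515 and 512 CPM in KO1 and 582 and 607 CPM in KO2, and TM9SF4 at 158 and 157, 170 and 164, and 203 and 198 CPM. For these 2 genes both KO2 libraries were again the highest. BCL2L1 was at 106 and 113 CPM in WT, 141 and 128 CPM in KO1 and 141 and 140 CPM in KO2 at day 4, so that KO2 did not stand above KO1 there.

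**Figure D4:**
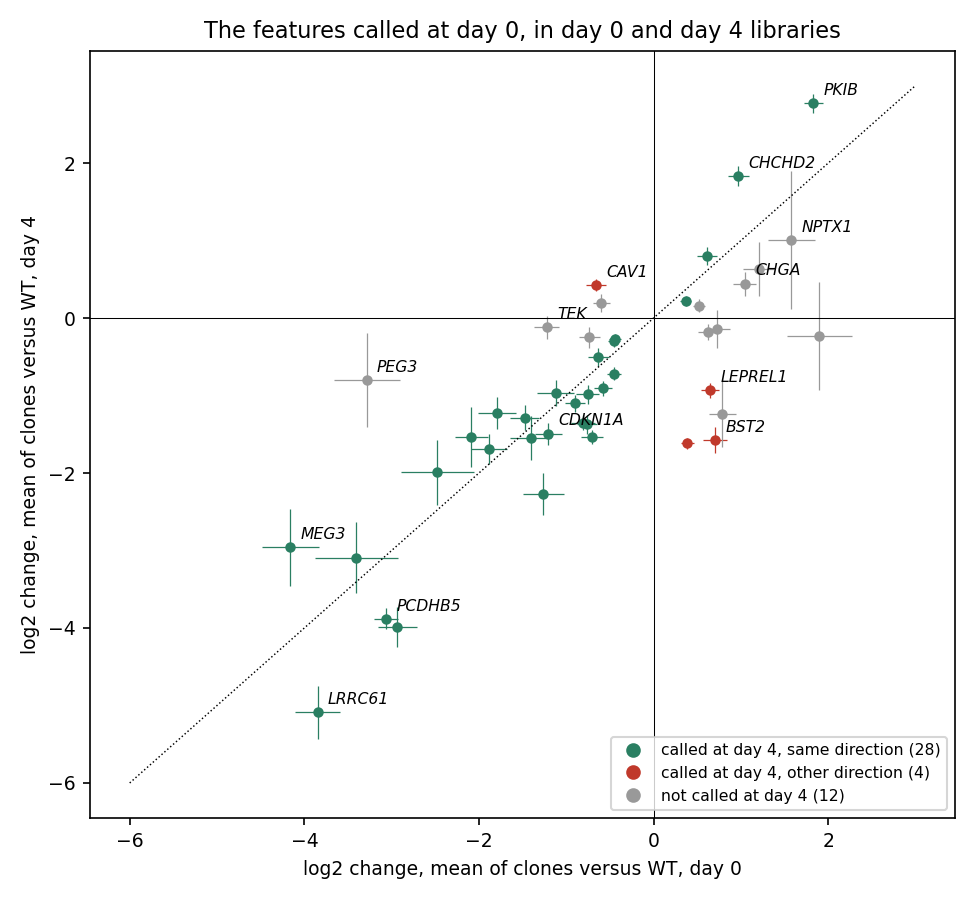
The log2 change of the mean of the clones from WT at day 0 (x axis) and day 4 (y axis) with SE bars for 44 of the 47 features called at day 0, the other 3 being left out because WT or the clones held 0 counts at day 4. Of the 44, 28 were called in the same direction at day 4 (green), 4 in the other (red) and 12 were not called (grey); the dotted line marks equal change.

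The day 4 libraries shared no sample with those of day 0, though 1 fit estimated the spread for both days. Of the 47 features, 30 were called in the same direction at day 4, 4 in the other and 13 were not called. The 30 were 63.8% of the day 0 calls and 0.748% of the 4011 day 4 calls, at a day when 23.9% of all features were called (11.3% higher, 12.6% lower). The lower genes were found again more often, 26 of 32, than the higher ones, 4 of 15; the difference of these shares was not tested. Of the 12 genes at least 1 log2 from WT in both clones, 9 were called the same way and 0 the other way.

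PKIB was further from WT at day 4: 9.92 and 12.4 CPM in WT, 104 and 109 CPM in KO1 and 56.2 and 53.7 CPM in KO2. Its log2 change was 2.77 (SE 0.12), and the change between the days of 0.94 was called (adjusted p = 0.00175). PCDHB5 was at 26.5 and 28.4 CPM in WT and 1.47 to 2.14 CPM in the clones at day 4, a log2 change of -3.88. LRRC61 was at 5.8 and 7.99 CPM in WT, 0.0863 and 0.138 CPM in KO1 and 0.16 and 0.468 CPM in KO2. For KO1 these were 200 counts in WT and 3 in the clone, a ratio of 60.8 (exact 95% interval 20.5 to 298), and KO2 had by then come close to KO1. C7orf29 was at 6.03 and 4.7 CPM in WT and 0.206 to 0.402 CPM in the clones. MEG3 was at 1.53 and 1.87 CPM in WT and 0.0863 to 0.481 CPM in the clones (log2 -2.96, adjusted p = 5.82e-04). CDKN1A was at 43.3 and 63.7 CPM in WT, 27.6 and 29.2 CPM in KO1 and 13.9 and 11.7 CPM in KO2 (log2 -1.49, adjusted p = 2.87e-06), with KO2 now the lower clone. In the p53 target list 23 of 35 were called lower and 2 higher, with a median of -0.46.

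Some day 0 differences were not found at day 4 or turned. TEK was at 20.2 and 20.9 CPM in WT, 23.6 and 25.3 CPM in KO1 and 16.5 and 13 CPM in KO2, so that the clones lay on both sides of WT (log2 -0.12, adjusted p = 0.612). PEG3 was at 0.534 and 0.451 CPM in WT and 0 to 0.562 CPM in the clones, with WT itself near the floor. SFRP1 was higher in the clones at day 0 and lower at day 4: 651 and 584 CPM in WT, 217 and 253 CPM in KO1 and 182 and 163 CPM in KO2 (log2 -1.62). BST2 and LEPREL1, a collagen prolyl hydroxylase, turned in the same way, to -1.57 and -0.93, although at day 4 LEPREL1 was below WT in KO2 and not in KO1 (134 and 109 CPM against 504 and 436 in WT and 517 and 482 in KO1). CAV1, the coat protein of caveolae, was lower in the clones at day 0 (12.6 and 11.9 CPM in WT, 7.36 to 8.15 CPM in the clones) and higher at day 4 (136 and 159 CPM in WT, 189 to 221 CPM in the clones). CHCHD2 kept its direction and widened, to 7.78 and 7.35 CPM in WT and 24.2 to 30.8 CPM in the clones (log2 1.83). GSC, not called at day 0, was at 56.4 and 45.6 CPM in WT, 36.7 and 37.6 CPM in KO1 and 8.83 and 8.23 CPM in KO2 at day 4, and the difference between the days was called (log2 -3.48, adjusted p = 0.00617). Over all features that difference was called for 13.6%, 6.36% more positive and 7.27% more negative at day 4, and for 15 of the 47.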

How the data were processed

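The deposited files hold raw read counts per feature from the authors, 1 file per library, made from TruSeq Stranded mRNA libraries per the labels' protocols. The submitters' processing notes name Bowtie2 2.1.0, HTSeq 0.6.1 and the build hg19; annotation, strand setting and treatment of reads with several hits: not given in the sources used here. The 5 closing rows that name no gene were left out. At day 0 reads without a feature came to 29.2 to 30.2% of all reads in a file, with those 5 rows included in the total. Of 54435 features, 16792 passed edgeR's filterByExpr over the 12 libraries.

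Counts were tested with edgeR 4.0.16 (TMM factors, quasi-likelihood test, 6 groups, Benjamini-Hochberg over all tested features, adjusted p below 0.05; R 4.3.3). The mean of the clones weights KO1 and KO2 equally. The members and the 32 gene lists were chosen with earlier results of these data known. Genes were named by rule: called in the mean, at least 1 log2 in each clone, at least 5 CPM on the higher side and no overlap of libraries, the 12 largest each way; the 5 marker genes; 12 lineage genes; the 2 largest called members each way of a list with at least 2 CPM; and the 6 largest each way between clones. Alternatives were other scaling factors, no filter, DESeq2 1.42.0, a replicate block, fewer libraries, the clones as 1 group and, chosen after seeing the data, limma 3.58.1 with library weights. The pipeline was tested on simulated data. Promoter windows are RefSeq's (GRCh38.p14); 45 of 47 called features matched the RefSeq gene table by name. Figures were drawn with matplotlib 3.10.9. The 8 ChIP-seq samples were not used here. Results for some genes are not reported here.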

Additional observations from a re-analysis of the deposited data

Results flagged for a closer look

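The following genes had a difference between the clones and WT that itself differed between day 0 and day 4, or differed between the clones, by edgeR's test of that difference. Values are log2 differences, day 4 minus day 0 where not said otherwise. PKIB (0.94), CHCHD2 (0.86), TEK (1.11), PEG3 (2.49), CAV1 (1.08) and TTC39C (0.79) had a more positive difference from WT at day 4. PCDHB5 (-0.82), BBS9 (-0.61), BTG2 (-0.83), PHC2 (-0.81), HTR1D (-2.02), LEPREL1 (-1.58), BST2 (-2.28) and SFRP1 (-2.0) had a more negative one. Among the lineage genes, GSC (-3.48), SOX17 (-2.37), FOXA2 (-1.52), GATA6 (-3.41) and CXCR4 (-3.03) had a more negative difference at day 4; at day 0 these 5 were at 0 to 3.18 CPM in every library, so the day 0 side of each value is imprecise. KO2 was above KO1 at day 0 for LRRC61 (3.50) and PCDHGA10 (1.44).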

How the results depend on the processing

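Numbers of called features are given as higher and lower. For the mean of the clones against WT at day 0 (15 and 32), no filter on low counts gave 124 and 108, DESeq2 32 higher, only the day 0 libraries 4 and 17, the clone libraries as 1 group 4 and 14, and limma with library weights, chosen after seeing the data, 31 higher; leaving out 1 library gave 1 to 787 and 10 to 870. For KO1 (10 and 30) the values were 233 and 150 with no filter, 16 higher with the replicate block, 21 higher with DESeq2, 3 and 13 with only day 0 libraries, 4 and 7 with library weights, and 1 to 1939 and 8 to 1848 without 1 library. For KO2 (9 and 15) they were 60 and 53 with no filter, 17 higher with DESeq2, 1 and 7 with only day 0 libraries, 37 and 35 with library weights, and 1 and 1 to 5 without 1 library. KO2 against KO1 (2 and 0) gave 14 and 57 with no filter, 0 higher with only day 0 libraries or with library weights, and 0 to 1376 and 0 to 1370 without 1 library. At day 4 (1902 and 2109) only day 4 libraries gave 3055 and 3225, the clones as 1 group 779 and 954, library weights 2990 higher, and leaving out 1 library 637 to 1369 and 1114 to 1752. The difference between the days (1068 and 1220) gave 129 and 212 with the clones as 1 group, and 336 to 2359 and 525 to 2362 without 1 library. The p53 targets called lower (6) were 15 with no filter, 2 with only day 0 libraries, 2 with the clones as 1 group, and 0 to 23 without 1 library. The day 0 features called the same way at day 4 (30) ranged from 24 to 29 without 1 library. The cause of these moves was not tested; fewer libraries leave fewer degrees of freedom by construction.

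With the replicate number as a block, 46 of the 47 features were called (CDH9 was not), and the mean gave 20 higher and 38 lower. Same-numbered day 0 libraries of 2 lines correlated in their deviations from the line means at 0.154 to 0.275, and all 15 pairs of groups at -0.0903 to 0.275; the labels tie no number to a shared batch, and whether same-numbered libraries share one was not tested. Direction changed only for genes not called: POU5F1 (-0.012 without WT replicate 2, -0.004 without KO1 replicate 2, -0.005 without KO2 replicate 2; at most 0.056 without 1 library), EOMES (-0.003 without WT replicate 2, at most 1.821), SOX17 (-0.164 without KO2 replicate 1, at most 1.008) and PCDHGA10 in the mean of the clones (-0.016 without WT replicate 2, -0.030 without KO1 replicate 1, at most 0.212). A floor of 3 counts came to 0.133 to 0.294 CPM at day 0, which limits statements on genes below about 1 CPM.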
